A study of Canis lupus familiaris with 8 samples.

Results

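The rodent Sfmbt2 cluster was represented on the arrays by 48 of 1224 miRNA names. They were chosen by name, as the murine names that start with miR-297, miR-466, miR-467 or miR-669 and do not end in a star. The family miR-466 gave 23 names, miR-669 gave 16, miR-467 gave 7 and miR-297 gave 2. Of the 1224 names, 289 were canine and 935 murine, and each name was printed as 40 features, the single spots of an array.

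Serum was taken from client-owned adult Doberman Pinschers with an age of 7 to 11 years per the labels. The study itself gives an age below this range for the dog it names DoCM8, which it calls young. It gives an age above the range for DoCM5, so the range does not hold for every dog. Dilated cardiomyopathy (DCM) was present in 4 dogs (arrays DoCM5 to DoCM8) and 4 dogs were healthy (arrays Con1 to Con4). Per the study's methods, the diseased dogs were treated with pimobendan and an ACE inhibitor together with an individual antiarrhythmic drug, so disease and treatment cannot be told apart. Each dog gave 1 array, and all 8 arrays lay on 1 slide. The DCM arrays filled row 1 of that slide and the control arrays row 2, so group and row cannot be told apart.

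The Sfmbt2 cluster is a large array of repeated miRNA genes in an intron of the Polycomb gene Sfmbt2 in mouse and rat. It is known for its imprinted expression from the paternal allele in placenta and for its many near-identical copies. The 5p arms of these families are rich in repeats of U and G, and the 3p arms in repeats of C and A. In the dog gene table used here (assembly UU_Cfam_GSD_1.0) the gene SFMBT2 lay on chromosome 2. Of 490 miRNA genes in that table, 0 lay within SFMBT2 and 0 carried the number of one of the 4 families.

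With dog serum, 6 of the 48 names gave signal above background and 42 did not. A feature was kept when the scanner software called it well above background on 2 or more of the 4 arrays in either group, and a name was detected when at least 1 of its features was kept. The detected names were mmu-miR-466i-5p, mmu-miR-466h-3p and mmu-miR-467f with all 40 features kept, mmu-miR-466i-3p with 22, mmu-miR-466q with 20 and mmu-miR-466f-3p with 10. Thus 5 of 23 names of miR-466 and 1 of 7 of miR-467 were detected, and 0 of 16 of miR-669 and 0 of 2 of miR-297. By arm label, 1 of 15 names marked 5p, 3 of 13 marked 3p and 2 of 20 without an arm were detected.

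The share of detected names was 12.5% in the cluster, against 35.8% of all names on the array. It was 54.0% for canine names and 52.2% for murine names that the array also lists under dog. For murine names without such a listing it was 29.0%, or 227 of 783. The count depended on the filter. When a call on 1 array was enough, 33 of the 48 names and 987 of 1224 names (80.6%) were detected, and when the signal had to exceed the 99th percentile of the negative controls on 2 arrays, 30 of the 48 and 936 of 1224 (76.5%). These shares are descriptions of 1 set of arrays and were not tested. Star names of the same families, which the rule leaves out, were detected in 2 of 14 cases.

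**Figure D1:**
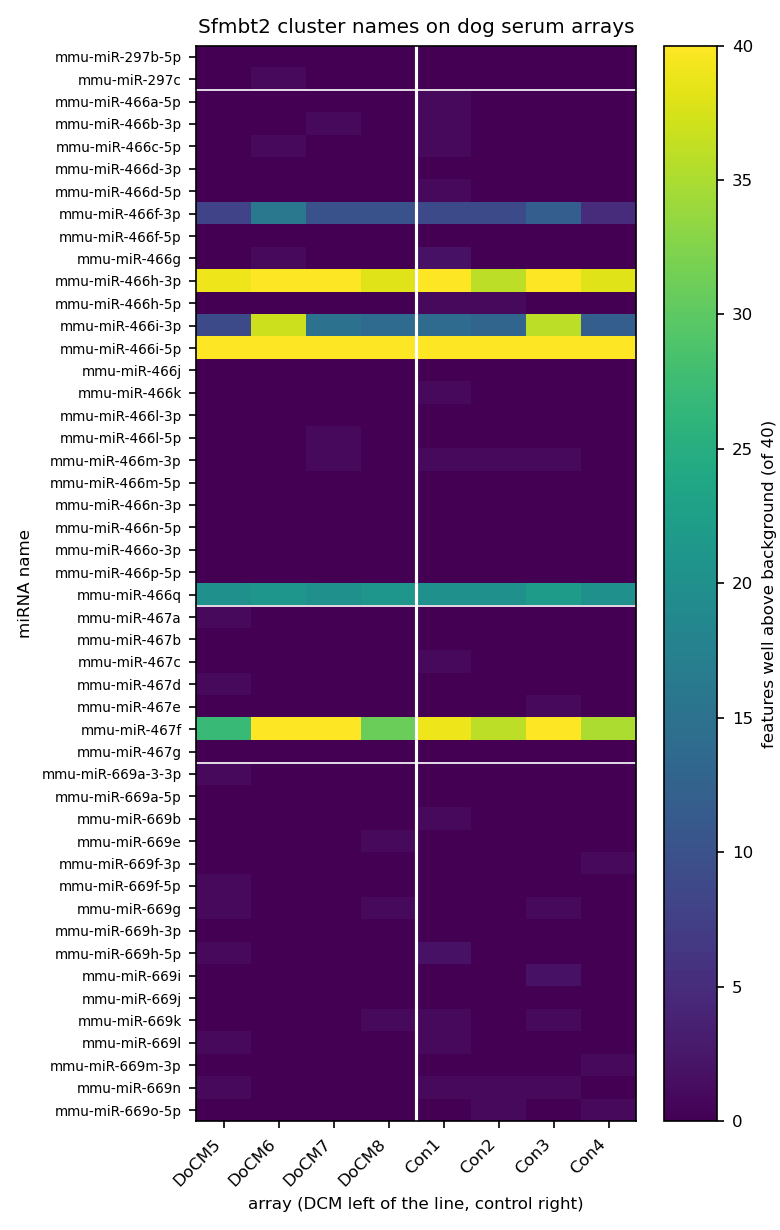
Number of features well above background, of 40 per name (colour), for the 48 cluster names (vertical axis, by family) on each of the 8 arrays (horizontal axis, DCM left and control right of the line). The 6 detected names stand out on all arrays, and no other name exceeded 2 features on any array.

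The 42 undetected names had few calls, which the filter on the same calls in part fixed. Of their 13440 readings, 47 were called well above background, which is 0.350%. Negative control features, to which no filter was applied, were called in 29 of 8000 readings, or 0.363%. No call was made on any array for 15 of the 42 names, and the other 27 had at most 4 of 320 readings called. The most calls were found for mmu-miR-466m-3p and mmu-miR-669n, with 4 each, and for mmu-miR-466g with 3, taken by its signal from among the names with 3 calls. The mean signal of the undetected names, 0.00467, was above that of the negative controls, −1.12, and both were near 0 after the background subtraction. Counted against the 99th percentile of the negative controls, 4.11% of these readings were above it, against the 1% of negative control readings that the percentile sets.

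Among the detected names, the number of features called differed in spread over the arrays. All 40 features of mmu-miR-466i-5p were called on each of the 8 arrays. For mmu-miR-466h-3p the number was 36 to 40, and for mmu-miR-467f it was 27 to 40, with 27 on DoCM5 and 31 on DoCM8. For mmu-miR-466q it was 20 to 22. For mmu-miR-466i-3p it was 37 on DoCM6 and 36 on Con3, and 9 to 15 on the other arrays. For mmu-miR-466f-3p it was 16 on DoCM6 and 12 on Con3, and lowest on Con4 with 5. Over the whole cluster 151 to 197 of 1920 features were called per array, with 197 on both DoCM6 and Con3, 1 array of each group.

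The brightest name was mmu-miR-466i-5p. Signals here are means over the kept features of a name before normalization, as an intensity with the background subtracted. For this name they were 35.8, 48.3, 31.0 and 32.9 on DoCM5, DoCM6, DoCM7 and DoCM8. They were 39.1, 36.4, 59.7 and 27.3 on Con1, Con2, Con3 and Con4. Both the highest and the lowest array were controls, and the groups overlapped. With this signal the name ranked 167 of 438 detected names.

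Signals of mmu-miR-466q were 17.6, 26.8, 21.1 and 14.6 on DoCM5 to DoCM8, and 19.8, 19.8, 29.7 and 15.9 on Con1 to Con4. Con3 was again highest and DoCM8 lowest, and the groups overlapped. For mmu-miR-467f, the only detected name outside miR-466, the signals were 14.7, 22.9, 20.6 and 13.3 in DCM and 16.1, 14.7, 21.4 and 13.1 in controls. Here DoCM6 was highest and Con4 lowest, with overlap of the groups.

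The 3p name mmu-miR-466h-3p gave 13.7, 18.4, 16.7 and 11.3 on DoCM5 to DoCM8 and 14.8, 12.5, 18.7 and 11.1 on Con1 to Con4. Its highest and lowest arrays, Con3 and Con4, differed 1.68-fold, the smallest range of the 6 names. Signals of mmu-miR-466f-3p, over its 10 kept features, were 10.6, 16.3, 11.9 and 9.26 in DCM and 9.86, 9.63, 18.5 and 7.10 in controls, a 2.60-fold range and the widest of the 6. The name with the lowest signal on this scale, mmu-miR-466i-3p, gave over its 22 kept features 7.44, 13.3, 8.68 and 7.59 in DCM and 8.03, 7.04, 15.4 and 5.95 in controls, and ranked 318 of 438. Over all 40 features the mean signal of the 8 arrays was 4.12 for mmu-miR-466f-3p and 7.07 for mmu-miR-466i-3p, so that the order of these names depended on the features averaged. In both names Con3 and DoCM6 were high, Con4 was lowest and the groups overlapped.

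The SD of the log2 signal over the 8 arrays was 0.30 to 0.47 for the 6 names, with a median of 0.36. The median for the 432 other detected names was 0.76. Signals of different names were not compared as amounts, because probes differ in their response.

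**Figure D2:**
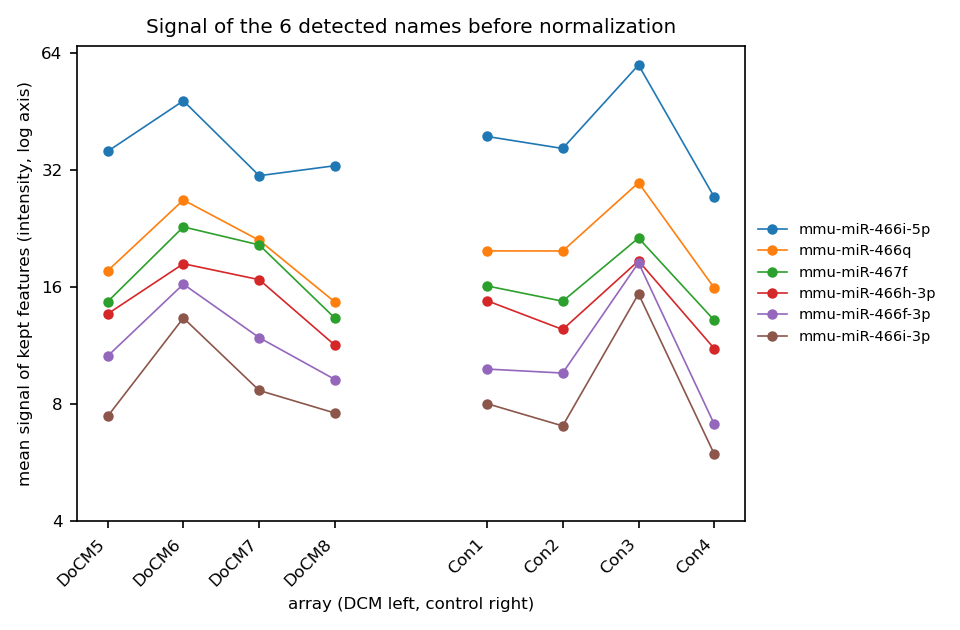
Mean signal of the kept features before normalization (vertical axis, intensity on a log axis) of the 6 detected names on each array (horizontal axis); lines join the values of 1 name within a group and mark no order. Con3 and DoCM6 are high for all 6 names, Con4 is low, and the DCM and control values overlap for each name.

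The signal of a name was not shared evenly by its probes. The 6 names were covered by 14 probes, of which 10 had a kept feature. In mmu-miR-466q, 1 probe gave a mean of 21.1 over the 8 arrays, and the other, which had no kept feature, 3.29. In mmu-miR-466f-3p, 1 of 4 probes gave 11.8 and the next 3.78, while the dimmest was at −0.033. All kept features of these 2 names came from 1 probe each.

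The other 4 names had kept features on both probes. Their brighter and dimmer probes gave 43.6 and 34.8 in mmu-miR-466i-5p, 17.9 and 11.6 in mmu-miR-466h-3p, and 23.2 and 10.5 in mmu-miR-467f. In mmu-miR-466i-3p they gave 9.56 and 4.70, and the dimmer probe had 2 kept features. A probe without kept features was thus found in 2 of 6 names (33.3%), and in 27.1% of the 432 other detected names.

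**Figure D3:**
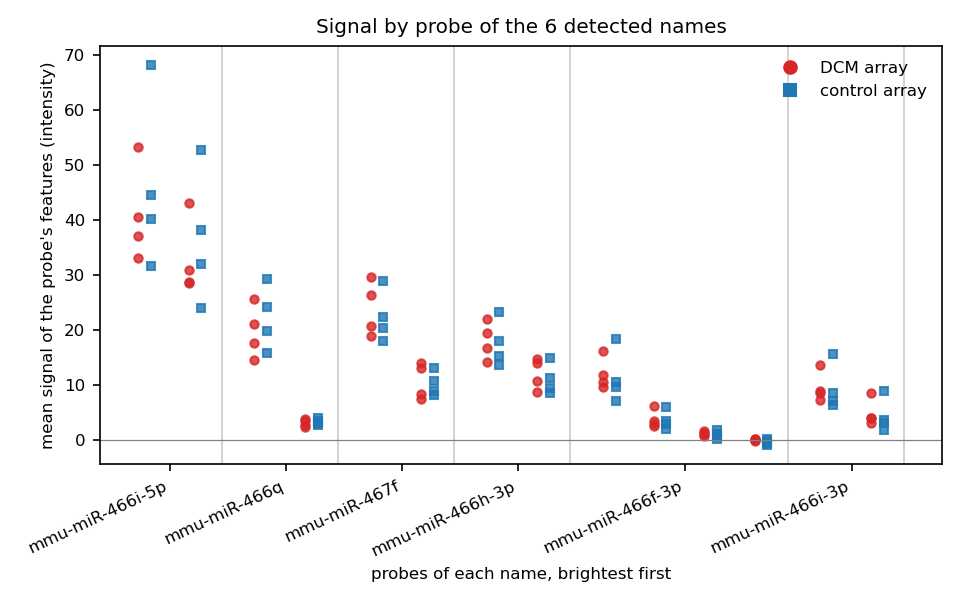
Mean signal per probe (vertical axis, intensity) for the probes of the 6 detected names (horizontal axis, brightest probe of each name first), with 1 point per array, circles for DCM and squares for control. One probe carries the signal of mmu-miR-466q and of mmu-miR-466f-3p, and both probes are lit in mmu-miR-466i-5p and mmu-miR-466h-3p.

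Whether the signal followed the groups was tested with limma and the limits of the study's methods. The array labelled DoCM8 was left out, and values were normalized between arrays by an own implementation of the vsn model. None of the 6 names passed the limits of p under 0.05 and a fold change over 1.5 in limma, where 12 of 438 detected names (2.74%) did. The study counted fewer detected miRNAs and more past these limits, so its counts were not reproduced. In limma no name among the 438 had an adjusted p under 0.05, and of the 6 names 0 had a p under 0.05 before adjustment. P-values measure only the spread between these dogs, each with 1 array.

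For mmu-miR-466i-5p the normalized log2 value over the 3 DCM arrays averaged 5.12 ± 0.83 (SD), and over the 4 control arrays 5.30 ± 0.30. The log2 fold change, DCM minus control, was −0.19 with a 95% interval of −1.09 to 0.72 (limma, p = 0.659, adjusted p = 0.997; exact permutation test over 35 splits, p = 0.743). The largest difference in this fit was that of mmu-miR-466i-3p, where the DCM arrays averaged 3.28 ± 0.58 (SD, n = 3) and the controls 2.85 ± 0.32 (SD, n = 4). Its log2 fold change was 0.44 with an interval of −0.37 to 1.25 (limma, p = 0.262, adjusted p = 0.997; exact permutation test over 35 splits, p = 0.257). For all 6 names the interval included 0 and a fold change of 1.5 upward, so a difference of that size was not excluded. The value of mmu-miR-466i-3p was 0.0053 to 0.60 under the other settings, lowest when arrays were scaled by the 75th percentile over names detected on all arrays.

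The log2 fold change was 0.43 for mmu-miR-466f-3p, 0.29 for mmu-miR-467f, 0.28 for mmu-miR-466h-3p and 0.04 for mmu-miR-466q. The limma p of these 4 names was 0.295 to 0.934. The median of the 6 names was 0.28, beside −0.0032 over all 438 names. With all 8 arrays the fit called 0 of the 6 names and 17 of 438 names (3.88%). With the slide column as a block it called 0 of the 6 names and 13 of 438 (2.97%). Without the filter on dim features it called 2 of the 48 names, both undetected, and 43 of 1224 (3.51%). In signals before normalization the differences of the 6 names were −0.10 to 0.15 on the log2 scale, with exact permutation p-values of 0.686 to 0.771 over 70 splits (n = 4 per group).

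The result depended on single DCM arrays. Without DoCM7 (and DoCM8) the median log2 fold change of the 6 names was −0.12, 4 of them were lower in DCM, and 0 of the 6 names and 12 of 438 names (2.74%) passed the limits. DoCM5 mattered too. The study names the sample it left out DoCM8 and describes its signals as intensified. By the median log2 signal of the other detected names the brightest array here was labelled DoCM5, and DoCM8 was below the median of the 8 arrays. With DoCM5 left out and DoCM8 kept, 0 of the 6 names and 19 of 438 names (4.34%) passed. With both left out, 2 DCM arrays remained and 4 of the 6 names passed the unadjusted limits, as did 16 of 438 names (3.65%) in the same direction and 29 (6.62%) in either. These were mmu-miR-467f with a log2 fold change of 0.73, mmu-miR-466f-3p with 0.68, mmu-miR-466h-3p with 0.63 and mmu-miR-466i-3p with 0.60, all higher in DCM. Their adjusted p in limma was 0.627 to 0.653. The exact permutation p was 0.133 for mmu-miR-466f-3p. It was 0.0667 for mmu-miR-466h-3p, mmu-miR-466i-3p and mmu-miR-467f, the smallest p possible with 15 splits. The detected names varied together over the arrays before normalization (median pairwise correlation 0.907), so these 4 names are not independent results.

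**Figure D4:**
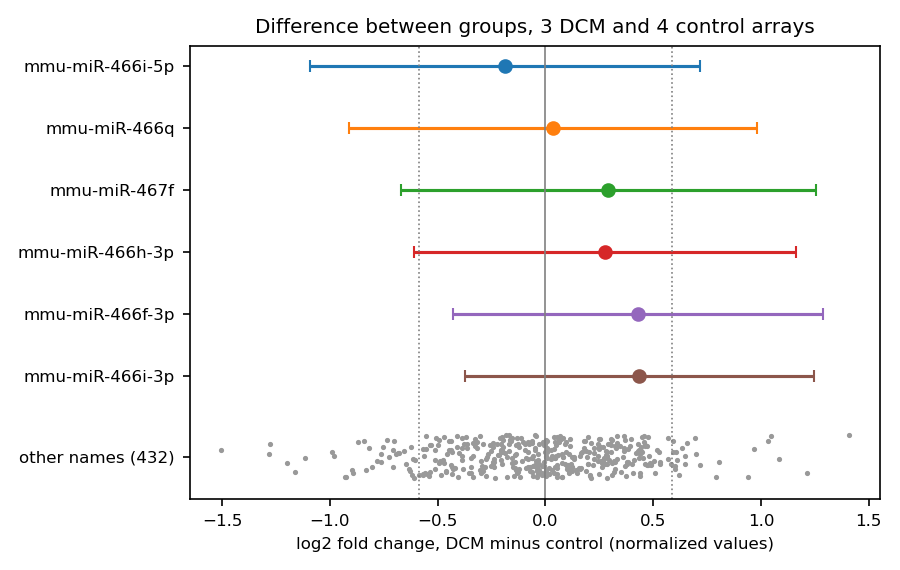
Log2 fold change, DCM minus control, of normalized values (horizontal axis) for the 6 detected names, with 95% intervals from limma as bars, and for the 432 other detected names as grey points; dotted lines mark a fold change of 1.5. All 6 intervals include 0.

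Whether the signal followed the brightness of the array was measured with the median log2 signal of the 432 other detected names. Brightness was 5.10, 4.30, 3.67 and 4.09 on DoCM5 to DoCM8 and 4.60, 3.99, 4.88 and 3.93 on Con1 to Con4. It did not separate the groups (exact permutation test, difference −0.06, p = 0.914, n = 4 per group). Of the 6 names, 0 correlated with brightness at an adjusted p under 0.05, against 177 of 438 names (40.4%).

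The highest correlation was that of mmu-miR-466i-5p, with Pearson r = 0.591 (exact permutation p = 0.122, adjusted p = 0.192, n = 8) and Spearman rho = 0.667 (exact permutation p = 0.0831, adjusted p = 0.131). Without DoCM5 and Con3, the 2 arrays farthest from the median, its r was 0.658. The lowest was that of mmu-miR-467f, with r = 0.095 (exact permutation p = 0.812, adjusted p = 0.849, n = 8), rho = 0.214 (exact permutation p = 0.619) and r = 0.034 without the same arrays. The 6 correlations were all above 0, with a median of 0.33. The median was 0.86 for canine names and 0.60 for murine names without a canine listing. In the cluster names DoCM5, the brightest array by this measure, was not the highest for any name.

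Without Con3 the median correlation was 0.078. With DoCM5 left out it was 0.56, and mmu-miR-466i-5p had r = 0.837 (exact permutation p = 0.0202, adjusted p = 0.0408, n = 7). In that setting 52.1% of the 438 detected names had an adjusted p under 0.05. Within a group only 4 arrays were available, and no correlation was computed there. With the group means removed from both measures, the median correlation over the 8 arrays was 0.34, with a range of 0.109 to 0.589, and 0.753 for the other detected names.

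The correlations changed with the measure of brightness. Against the median of all other names, detected or not, the order was reversed, with a median r of 0.61 for the 6 names and 0.26 for the other detected names (0.56 for murine names without a canine listing). That median was only log2 −1.39 (Con4) to −0.45 (Con1). Most names on the array were undetected, so it lay near background and says little about the brightness of detected signals. No name had an adjusted p under 0.05 in the exact permutation test, and before adjustment 1 of the 6 and 88 of 438 names did. Against the number of features of other names well above background, which was 10649 on DoCM7 and 13803 on Con3, the median r of the 6 names was 0.56, and 0.67 for the other detected names. Here 0 of the 6 names and 92 of 438 names (21.0%) had an adjusted p under 0.05, and mmu-miR-466i-5p came nearest with r = 0.823 (exact permutation p = 0.0116, adjusted p = 0.053, n = 8). Its r was 0.659 without DoCM7 and Con3.

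Against the positive control probes of the array, which were brightest on Con3 (log2 11.1) and DoCM6 (10.8), the correlations of the 6 names were 0.608 to 0.818. The median was 0.75, against 0.095 for the other detected names. By class it was 0.46 for murine names without a canine listing and −0.18 for canine names. No adjusted p was under 0.05, and 4 of the 6 names had an exact permutation p under it before adjustment (0.0193 to 0.041, n = 8), as did 49 of 438 names (11.2%). Without DoCM6 and Con3 the 6 values were −0.26 to 0.15, so the relation rested on these 2 arrays. This measure was added after seeing the data.

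After normalization over all 8 arrays the order of the arrays changed. The value of mmu-miR-466h-3p was 3.08 on DoCM5, its lowest, and 4.69 on DoCM7, its highest, and DoCM7 was the dimmest array by the median of the other names. The correlations with brightness turned negative, with a median of −0.77 and a range of −0.84 to −0.43 for the 6 names, beside 0.048 for the other detected names. By class the median was −0.233 for murine names without a canine listing and 0.375 for canine names. These values are not independent of those before normalization, since the calibration takes the brightness of an array out of all names. A name whose signal followed brightness only weakly before this step can turn negative through it alone. Before normalization the median correlation of the 6 names with the canine names detected on all arrays was 0.15. The permutation test does not account for this step, so no conclusion is drawn from the calls below. At an adjusted p under 0.05, 0 of the 6 names and 9.36% of all detected names were called. Against the median of the canine names detected on all arrays, the median correlation was −0.84, and 2 of the 6 names and 77 of 438 names (17.6%) were called. For mmu-miR-466i-5p this r was −0.898 (exact permutation p = 0.00632, adjusted p = 0.042, n = 8) with rho = −0.714 (exact permutation p = 0.0576, adjusted p = 0.205). For mmu-miR-466q it was −0.867 (exact permutation p = 0.00528, adjusted p = 0.0386, n = 8) with rho = −0.833 (exact permutation p = 0.0154, adjusted p = 0.101). Without DoCM5 and DoCM7, the arrays farthest from the median, r was −0.531 and −0.534 (exact permutation p = 0.264 and 0.272, n = 6), so the calls rested on these arrays.

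**Figure D5:**
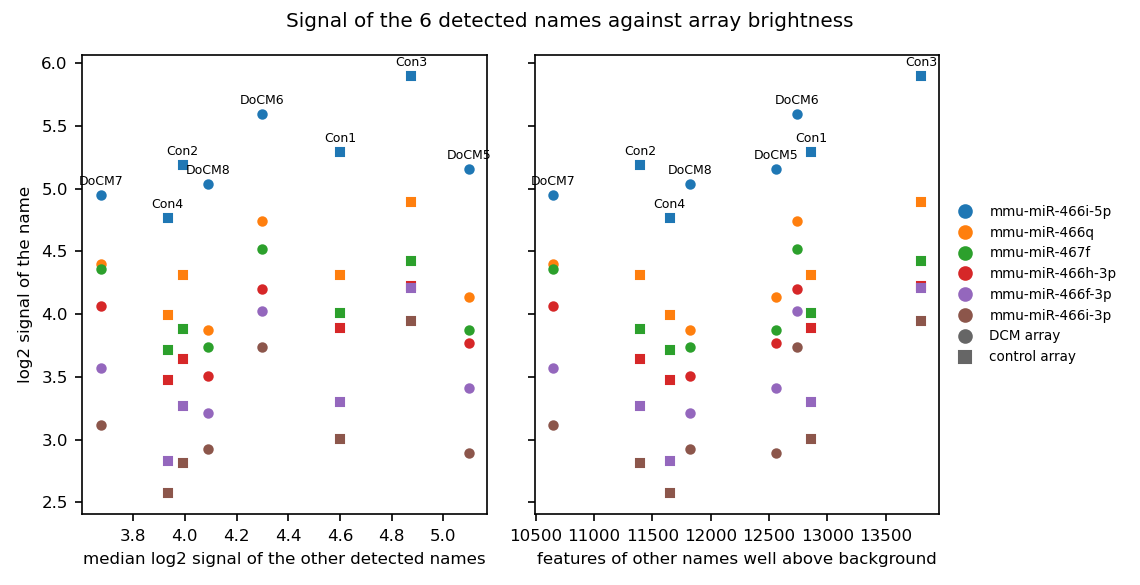
Log2 signal before normalization of the 6 detected names (vertical axis) against the median log2 signal of the 432 other detected names (left) and against the number of features of other names well above background (right), with circles for DCM and squares for control arrays. Con3 has the most features above background at the right and the highest signal in 5 of the 6 names, while DoCM5 is brightest at the left and highest in none of them.

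The local background around the features was 29.3 to 30.1 on the DCM arrays and 27.2 to 28.7 on the control arrays and did not overlap (exact permutation test, p = 0.0286, n = 4 per group, the smallest p possible). Its correlations with the 6 names were −0.10 to 0.19. Markers of blood cells were detected in the samples. They were 4 of 4 erythrocyte, 4 of 4 leukocyte and 3 of 3 platelet miRNAs, some of them listed under both species, and 3 of 3 liver miRNAs were detected as well, the highest being cfa-miR-451 with a mean log2 signal of 16.9. Of 7 markers of heart and skeletal muscle 4 were detected, without miR-133a, miR-208a and miR-208b. The part of these cells in the signals of the cluster names was not tested.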

How the data were processed

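Total RNA of 8 sera was labelled with Cy3 and hybridized to 1-colour Agilent miRNA arrays. Per the labels, the deposited values are an intensity per feature from Agilent Feature Extraction 10.7.3.1, from which the authors had the background subtracted, with no normalization between arrays. The deposited table of the series held the same values. Control features were left out, and features marked as outliers were left out of the means. A feature was kept when well above background on at least 2 of 4 arrays of a group, which left 13423 features of 438 names. Brightness and correlations used log2 of the mean signal, with a floor of 0.1. For the group comparison the mean signals were calibrated by an own implementation of the vsn model (least trimmed squares quantile 0.9, 5 slices, 7 iterations). It was checked only on data simulated from its own fit and was not compared with the Bioconductor package. The calibrated values were fitted with limma 3.58.1 in R 4.3.3 over all 438 names with Benjamini-Hochberg adjustment. Exact permutation tests were two-sided. Python 3.11.15, numpy 2.4.6, pandas 2.3.3, scipy 1.17.1 and matplotlib 3.10.9 were used.

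The cluster names, the marker lists and the tests were chosen with earlier results of these data known. Named were the brightest detected names (at most 12), the brightest of each family and arm, names past the limits, the 3 detected names with the fewest kept features and the 3 undetected names with the most calls. The number of arrays limits the precision. Alternatives covered the arrays used, the filter, the normalization, the averaging of features, the slide column and the measure of brightness. Probe and miRNA sequences were not used here.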

Additional observations from a re-analysis of the deposited data

Results flagged for a closer look

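Among the undetected names, DoCM5 had 8 features well above background, while the other 3 DCM arrays had 3 each, so that this array stood apart from its group. It was 1 of 32 groups of 4 arrays examined, and chance gives such an array in about 1 of 20. The control array Con1 had more such calls, 16.

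Star names of the same families, which are not among the 48 names, gave signal in 2 of 14 cases. The mean signal over the 8 arrays was 13.4 for mmu-miR-669p* (9.96 to 17.7), with all 40 features kept, and 8.35 for mmu-miR-669c*, with 20 kept. The negative controls had a mean of −1.12.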

How the results depend on the processing

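The number of detected names was 33 when 1 array well above background was enough and 30 when the signal had to exceed the 99th percentile of the negative controls (beside 987 and 936 of all 1224 names), which also raised the share of features above background from 8.85% to 14.0%. It was 6 without any 1 array. The number past p and fold was 0 to 4 with 1 more array left out, 4 without DoCM5, and 2 without the filter on dim features (mmu-miR-466g and, named after its value was seen, mmu-miR-669k, both undetected), beside 43 of 1224 names. The number correlated with brightness was 0 to 1 with 1 array left out. The median log2 fold change was 0.28 in the main fit and −0.12 (without DoCM7) to 0.62 (without DoCM5) in 19 other settings. Its sign thus turned without DoCM7. For single names the sign turned in mmu-miR-466i-5p (0.17 with DoCM5 left out in place of DoCM8, 0.088 with the 75th percentile over all names, 0.0023 with normexp and quantile normalization, −0.45 to 0.29 with 1 array left out), in mmu-miR-466q (−0.050 with all 8 arrays, −0.11 with the 75th percentile over names detected on all arrays, −0.33 to 0.50 with 1 left out), in mmu-miR-466h-3p (−0.11 to 0.63 with 1 left out) and in mmu-miR-467f (−0.13 to 0.73). The cause was not tested.

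The median correlation with brightness was 0.33 before and −0.77 after normalization. It was 0.61 and 0.051 against the median of all other names, which lay near background. It was 0.56 and −0.45 against the number of features above background, and 0.15 and −0.84 against the canine names on all arrays. Against measures added after seeing the data it was 0.49 and −0.58 (murine names without a canine listing), 0.75 and 0.48 (positive controls), 0.13 and 0.077 (local background) and, with group means removed, 0.34 and −0.78. With 1 array left out it was 0.078 to 0.56 before and −0.84 to −0.58 after normalization, with 0.078 without Con3.

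The labels pair no dogs, since DCM arrays are numbered 5 to 8 and control arrays 1 to 4. Each slide column held 1 array of each group, and with the slide column as a block 0 of the 6 names and 13 of 438 passed. The weak signals and 4 arrays per group limit these results.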

Other observations

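The 6 detected names varied together over the arrays. The 15 correlations among them, of log2 signals before normalization over 8 arrays, had a median of 0.907 (0.691 to 0.976). They share the arrays, and the values are a description with no test. Among all other detected names the star name mmu-miR-669p* had the most similar profile, with a median correlation of 0.947 to the 6 names, followed by mmu-miR-1894-3p with 0.941. The median correlation of detected names with the 6 names was 0.197 for canine names, 0.162 for murine names with a canine listing and 0.487 for murine names without one. The highest was 0.864 among canine names (cfa-miR-631) and 0.893 among murine names with a canine listing (mmu-miR-432). Correlations among the names of each class are not given, so 0.907 has no like value beside it.

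The 2 listings of miR-574, which were looked up after these values were seen, differed. The median correlation with the 6 names was 0.821 for mmu-miR-574-5p and −0.456 for cfa-miR-574. For mmu-miR-1187, looked up with them, it was 0.678. The signal of mmu-miR-574-5p was highest on Con3 (29.1) and DoCM6 (23.0), and that of cfa-miR-574 on Con1 (45.2) and DoCM5 (38.6). The names were not matched by sequence.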
